A study of Mus musculus with 6 samples.

Results

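Class II odorant receptors that lie on chromosome 7 away from the class I receptor cluster were compared between wild-type and 5x21-OR1A1 olfactory epithelium. They were taken by symbol, as Olfr290 to Olfr310 and Olfr520 to Olfr541 without pseudogene names, which gave 33 genes of the 53686 symbols in the count table and of 1106 symbols of odorant receptor genes. The tissue was dissected epithelium of C57BL/6J mice, and both groups had 3 libraries, 1 group labelled wild-type and the other hemizygous for 5x21-OR1A1, a transgene of the human odorant receptor OR1A1. The sources used here give neither the promoter of the transgene nor the age and sex of the mice nor the number of animals behind a library. A p-value therefore speaks only of the spread between the libraries, which may be technical. By the counts of Xist and Ddx3y the libraries were of both sexes, and their split over the groups is not given here. The comparison bears on the question in the series title, how receptors are chosen when 1 receptor transgene is highly represented.

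Odorant receptors are G protein-coupled receptors of olfactory sensory neurons. A mature neuron expresses as a rule 1 receptor gene from 1 allele, so the RNA level of a receptor in whole tissue follows both how many neurons chose it and how much RNA each of them makes. Class I receptors form a single cluster on chromosome 7 and are mostly used by dorsal neurons, whereas class II receptors are spread over many chromosomes and zones of the epithelium. In bulk tissue fewer cells of a type and less RNA per cell cannot be told apart.

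The tissue label was checked against marker genes of mature olfactory sensory neurons. All 14 were detected and tested, and together they took 19883 to 26052 CPM in wild-type and 13131 to 14395 in 5x21-OR1A1 libraries. CPM is a count per 1000000 counts, of the raw library total for summed marker lists and of the TMM-scaled total for single genes. Transcripts of vomeronasal receptors were present and uneven: 329 Vmn1r and Vmn2r genes together took 278, 69.1 and 16.1 CPM in wild-type and 110, 85.8 and 266 CPM in 5x21-OR1A1 libraries, while Trpc2, the channel of vomeronasal neurons, was listed at 0 in all 6. Library totals ran from 27506217 to 35804712 counts, of which the 33 receptors took 3011 to 6278.

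On GRCm38 the 33 receptors fell into 4 loci. Olfr290 and Olfr291 form a pair at 84853553 to 84920861, and 15 genes from Olfr292 to Olfr310 form a cluster at 86268487 to 86697507. Olfr520 and Olfr521 form a second pair at 99730273 to 99769321, on the centromere side of the class I cluster. The other 14 genes, Olfr522 to Olfr541, lie at 140159999 to 140705606 near the end of the chromosome. All are annotated as protein-coding genes. Coding sequences were alike within a locus in part only: the pairwise identity of coding bases was 96.9% for Olfr290 and Olfr291 and 88.0% for Olfr520 and Olfr521, and it ran from 49.4 to 91.6% (median 56.9%) in the Olfr292 to Olfr310 cluster and from 52.1 to 93.7% (median 61.2%) in the Olfr522 to Olfr541 cluster.

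The receptors that changed are shown by a stretch of 60 coding bases around the conserved end of the third membrane-spanning segment, a hallmark of the family. Beside them stand 3 receptors that did not pass: Olfr293, the nearest relative of Olfr299, and Olfr525 and Olfr532. The latter are 91.5% identical to each other and are not close relatives of the receptors that changed. The stretches were read from GENCODE M21 transcripts, 5′ to 3′, and capitals mark bases that differ from Olfr521 at the same place. Olfr520 differed at 0 of the 60 bases, Olfr522 at 15 and Olfr299 at 16.
Olfr521: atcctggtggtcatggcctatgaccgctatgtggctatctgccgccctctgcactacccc
Olfr520: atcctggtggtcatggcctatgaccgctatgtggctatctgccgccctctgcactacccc
Olfr522: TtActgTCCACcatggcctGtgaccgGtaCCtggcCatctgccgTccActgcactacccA
Olfr299: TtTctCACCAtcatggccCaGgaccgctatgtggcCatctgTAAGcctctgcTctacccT
Olfr293: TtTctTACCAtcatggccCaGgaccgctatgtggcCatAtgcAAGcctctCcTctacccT
Olfr525: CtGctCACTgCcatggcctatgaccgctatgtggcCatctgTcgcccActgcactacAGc
Olfr532: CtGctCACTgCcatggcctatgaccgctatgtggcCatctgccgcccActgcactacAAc

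Of the 33 receptors 30 had enough reads to be tested, and 4 passed an adjusted p of 0.05 in edgeR's quasi-likelihood test over all genes, 3 lower and 1 higher in 5x21-OR1A1 tissue. Olfr520, Olfr521 and Olfr522 fell and Olfr299 rose. These 4 were 13.3% of the members tested, against 2.71% of all 19267 genes tested (2.20% lower and 0.519% higher), 24.3% of 738 other class II receptors and 71.2% of 111 class I receptors. The median log2 fold change of the tested members was -0.12, against 0.02 over all genes, -0.65 over the other class II receptors, -0.38 over the 61 tested class II receptors elsewhere on chromosome 7 and -1.68 over class I receptors. Single values ran from -2.5 to 1.69. As the members were chosen with results of these data known, these medians are descriptions and were not tested against each other.

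**Figure D1:**
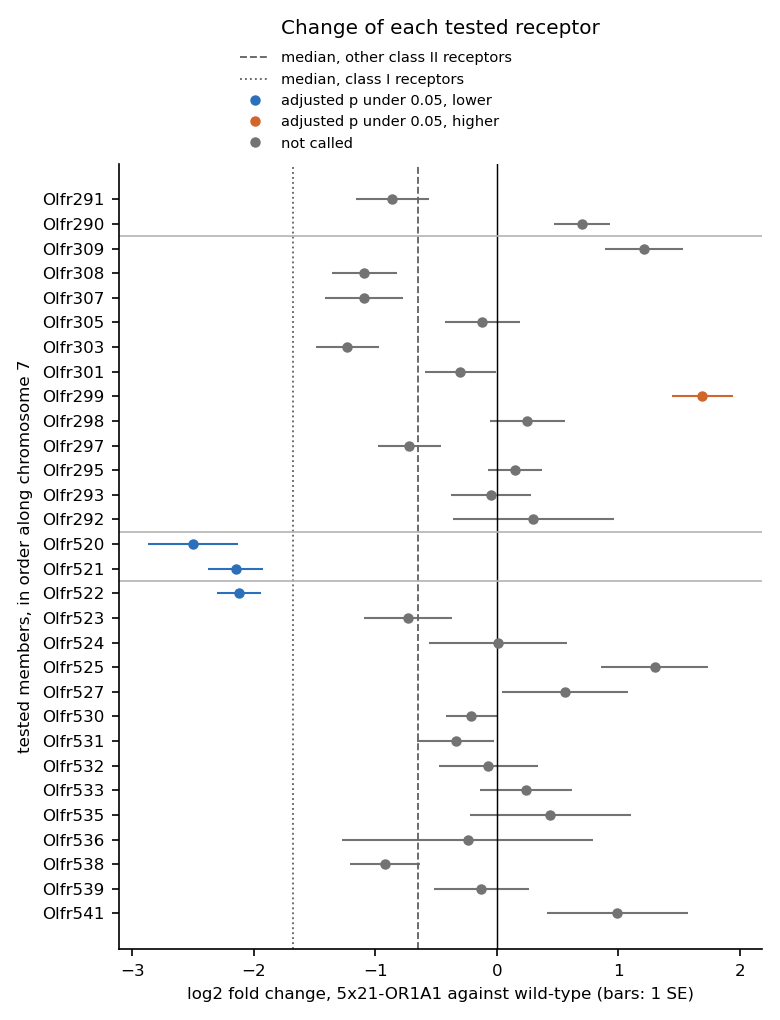
Log2 fold change of each tested receptor between 5x21-OR1A1 and wild-type libraries (x axis) with 1 standard error, in order along chromosome 7 (y axis), with grey lines between the 4 loci. The 3 blue points near -2 are Olfr520, Olfr521 and Olfr522, and the orange point at 1.69 is Olfr299. The dashed line gives the median of other class II receptors (-0.65) and the dotted line that of class I receptors (-1.68).

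The Olfr520 pair was lower in every 5x21-OR1A1 library. Wild-type libraries held 177, 266 and 147 counts of Olfr521 and 5x21-OR1A1 libraries 55, 44 and 28, or 5.62, 7.30 and 5.09 against 1.5, 1.51 and 1.03 CPM. The groups did not overlap, and the log2 fold change was -2.15 (SE 0.23, edgeR adjusted p = 0.00397). Olfr520, the rarer gene, was at 38, 71 and 45 counts in the wild type against 13, 9 and 4 with the transgene. The groups were again apart, with a log2 fold change of -2.5 (SE 0.37, edgeR adjusted p = 0.0137). The call of Olfr520 was lost without 5x21-OR1A1 library 1, 2 or 3 (edgeR adjusted p = 0.0539, 0.0690 and 0.0568), while Olfr521 passed in all 6 fits that left out a library. The transcripts of the pair share stretches of read length: 7.23% of the windows of 100 bases in Olfr520 and 3.99% of those in Olfr521 are found in the other gene, so a small part of their reads could not be placed on 1 of them. The ratio of Olfr520 to Olfr521 counts within a library was -1.93 in wild-type and -2.31 in 5x21-OR1A1 tissue on the log2 scale, a difference of -0.38 (SE 0.24).

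Olfr522, the first gene of the distal cluster from the centromere side, was the third that fell. It had 13.4, 14.6 and 12.6 CPM in wild-type libraries and 2.94, 3.95 and 2.47 CPM in 5x21-OR1A1 libraries. The 6 values formed 2 separate groups, with a log2 fold change of -2.12 (SE 0.18, edgeR adjusted p = 0.00221), and the gene passed in all 6 fits that left out a library. No window of 100 bases of its transcripts was found in another gene, and its closest member in coding sequence, Olfr524, was 62.3% identical. Olfr523, the next gene along the chromosome, had 6.48, 9.86 and 14.7 CPM in wild-type and 9.19, 5.08 and 4.35 CPM in 5x21-OR1A1 libraries, which overlapped (log2 fold change -0.73, SE 0.36, edgeR adjusted p = 0.348).

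**Figure D2:**
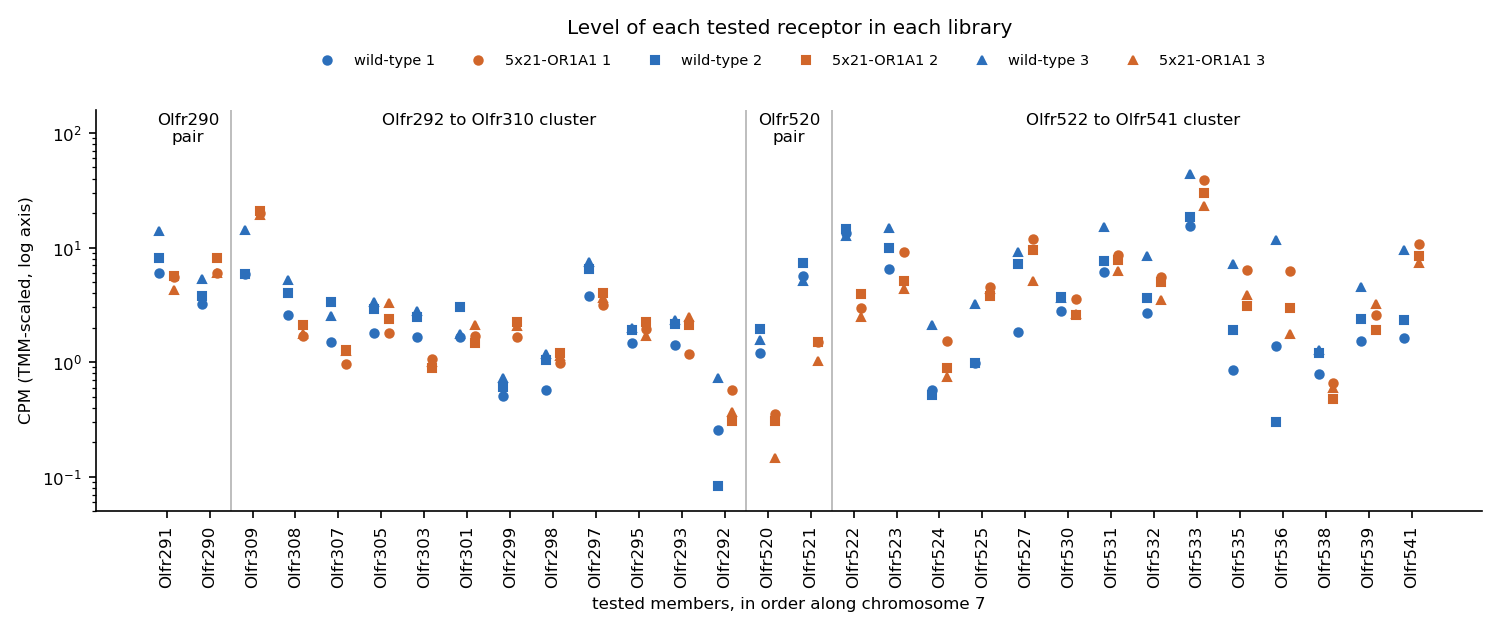
TMM-scaled CPM of each tested receptor (log y axis) in each wild-type (blue) and 5x21-OR1A1 (orange) library, in order along chromosome 7, with marker shape giving the replicate number. Wild-type points of Olfr520, Olfr521 and Olfr522 lie above all 5x21-OR1A1 points, those of Olfr299 lie below, and wild-type library 3 (blue triangles) lies well above the other wild-type libraries in most genes from Olfr523 to Olfr541.

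None of the other 13 receptors of the Olfr522 to Olfr541 cluster passed. Olfr533, at 15.4, 18.6 and 43.6 CPM in wild-type and 38.9, 29.8 and 22.8 CPM in 5x21-OR1A1 libraries, had the highest level per exon length of all members in both groups (8.98 and 10.6 CPM per kb). Olfr541 had 1.62, 2.33 and 9.51 CPM against 10.7, 8.41 and 7.37 CPM, a log2 fold change of 0.99 (SE 0.58, edgeR adjusted p = 0.436). Only wild-type library 3 reached the range of the 5x21-OR1A1 libraries. Olfr525 had 0.984, 0.989 and 3.22 CPM against 4.52, 3.77 and 4.38 CPM, groups that did not overlap (log2 fold change 1.30, SE 0.44, edgeR adjusted p = 0.187). Olfr532, 91.5% identical to Olfr525 in coding sequence, had a value of -0.07 (SE 0.41). Olfr538 had 0.794, 1.21 and 1.28 CPM against 0.654, 0.480 and 0.589 CPM, also apart (log2 fold change -0.92, SE 0.29, edgeR adjusted p = 0.168). Of its windows of 100 bases 8.18% are also found in Olfr537-ps1 or Olfr46, so a part of its reads could not be placed on it alone.

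At this locus the wild-type libraries also differed among themselves. Wild-type library 3 was the highest of the wild-type libraries in 12 of the 14 tested genes, with a median of 2.40 times the mean of the other two. The order was much the same in the Olfr292 to Olfr310 cluster, where it was the highest in 10 of 12 genes with a median of 1.37 times, and in both genes of the Olfr290 pair, but in neither of the Olfr520 pair. It was the highest in 60.7% of the other class II receptors on chromosome 7 (median 1.38 times), in 52.8% of all other class II receptors (median 1.29 times), in 32.1% of all genes and in 2.7% of class I receptors. Among 5x21-OR1A1 libraries, library 1 was the highest in 12 of the 14 genes of the distal cluster, in 16.7% of the tested genes of the Olfr292 to Olfr310 cluster and in 34.8% of the other class II receptors. Olfr536 had the largest standard error of all members, at 1.37, 0.302 and 11.6 CPM in wild-type and 6.27, 2.95 and 1.77 CPM in 5x21-OR1A1 libraries (log2 fold change -0.24, SE 1.03). Without wild-type library 3, 4 members passed as higher, which were Olfr299, Olfr309, Olfr525 and Olfr541, and the median of the range from Olfr520 to Olfr541 went from -0.17 to 0.48.

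Zone markers were read beside this spread. The 3 dorsal markers took 1548, 1949 and 1333 CPM in wild-type and 1129, 1001 and 929 in 5x21-OR1A1 libraries, so wild-type library 3 had the lowest dorsal sum of its group. The 5 ventral markers took 249, 177 and 217 CPM in wild-type and 247, 266 and 240 in 5x21-OR1A1 libraries. Wild-type library 3 also had the lowest sum of vomeronasal receptors. The part of these levels in the result was not tested.

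**Figure D3:**
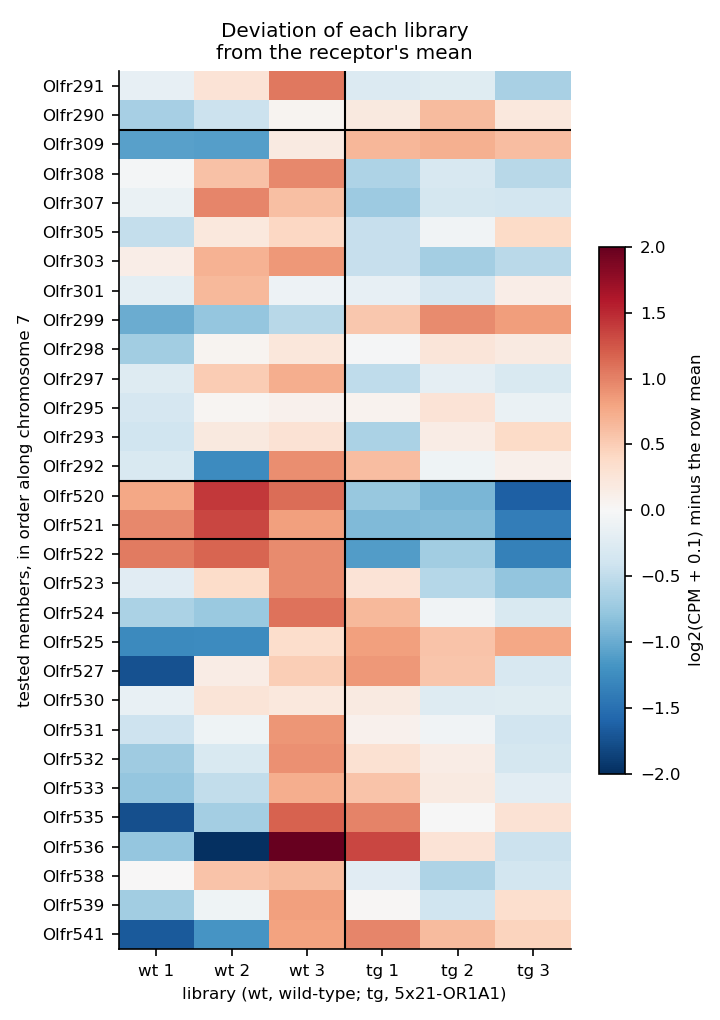
Deviation of each library from the mean of a receptor on the scale of log2(CPM + 0.1) (colour, red above and blue below the mean), for the tested receptors in order along chromosome 7 (rows) and the 6 libraries (columns). Rows Olfr520 to Olfr522 split by genotype, while from Olfr523 to Olfr541 the third wild-type column is mostly red beside 2 paler or blue wild-type columns.

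In the Olfr292 to Olfr310 cluster 1 of 12 tested receptors rose and 0 fell. Counts of Olfr299 were 16, 22 and 21 in the wild type against 61, 65 and 56 with the transgene, or 0.508, 0.604 and 0.726 against 1.66, 2.23 and 2.06 CPM. The groups did not overlap, and the log2 fold change was 1.69 (SE 0.25, edgeR adjusted p = 0.0151). The call was lost without 5x21-OR1A1 library 1, 2 or 3 (edgeR adjusted p = 0.0501, 0.0814 and 0.0821). No window of 100 bases in Olfr299 was found in another gene. Its nearest relative, Olfr293, 85.5% identical in coding sequence, had a value of -0.05 (SE 0.33), and the log2 ratio of Olfr293 to Olfr299 counts within a library was 1.63 in wild-type and -0.11 in 5x21-OR1A1 tissue, a difference of -1.75 (SE 0.25).

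The pseudogene next to Olfr299 was also higher. Olfr300-ps1, at 86435913 to 86445258 on the same strand as Olfr299, held 10, 17 and 9 counts in the wild type against 34, 32 and 34 with the transgene. It rose by 1.55 on the log2 scale (SE 0.30, edgeR adjusted p = 0.0372). The receptor on its other side, Olfr301, had a value of -0.30 (SE 0.29).

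Several other genes of this cluster had values in both directions that did not pass. Olfr309, one of the more abundant, was at 186, 212 and 413 counts in the wild type against 733, 602 and 527 with the transgene, a log2 fold change of 1.21 (SE 0.32, edgeR adjusted p = 0.109). The 5x21-OR1A1 libraries were all above the wild-type ones, and the gene passed without wild-type library 3 (edgeR adjusted p = 0.00214). With all libraries it passed in DESeq2 (adjusted p = 0.0015), limma-voom (adjusted p = 0.0486) and edgeR without a filter (adjusted p = 0.0209). In all it passed in 6 of 16 other fits. Olfr303 had 1.65, 2.5 and 2.80 CPM against 1.06, 0.892 and 0.994 CPM, a log2 fold change of -1.23 (SE 0.26, edgeR adjusted p = 0.0526). It passed in 4 of 16 other fits, among them DESeq2 (adjusted p = 0.0104). Olfr308 and Olfr307 had values of -1.09 each (SE 0.27 and 0.32, edgeR adjusted p = 0.0913 and 0.139), and their groups did not overlap. Olfr297, second in level per length in wild-type tissue at 3.07 CPM per kb, had a value of -0.72 (SE 0.26, edgeR adjusted p = 0.210). Without wild-type library 1 these 4 genes, Olfr297, Olfr303, Olfr307 and Olfr308, passed as lower, so that 7 members did. The other 6 tested genes of the cluster had values from -0.30 to 0.30.

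The 2 nearly identical genes of the Olfr290 pair had values of opposite sign. Olfr291 had 6.00, 8.16 and 14.0 CPM in wild-type and 5.53, 5.66 and 4.27 CPM in 5x21-OR1A1 libraries (log2 fold change -0.86, SE 0.30, edgeR adjusted p = 0.196). Olfr290 had 3.21, 3.79 and 5.36 CPM against 5.94, 8.10 and 6.00 CPM, a log2 fold change of 0.70 (SE 0.23, edgeR adjusted p = 0.17). Neither gene passed, though the groups were apart in both. Within a library the log2 ratio of Olfr290 to Olfr291 counts was -0.90, -1.10 and -1.38 in wild-type and 0.10, 0.52 and 0.49 in 5x21-OR1A1 libraries, a difference of 1.5 (SE 0.19) that no scaling of the libraries can move. Of the windows of 100 bases 22% in Olfr290 and 4.09% in Olfr291 are also found elsewhere, for Olfr290 mostly in the pseudogene Gm18560 that lies across it on the other strand, so both levels are uncertain.

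Over all tested members the groups did not overlap in 4 higher and 8 lower genes. Over all genes tested 11.4% were higher and 12.5% lower without overlap. An unadjusted p under 0.05 was reached by 13 of the 30 members, 4 higher and 9 lower, and by 17.1% of all genes. Of 738 other class II receptors tested, 69 were higher and 320 lower without overlap, and 422 had an unadjusted p under 0.05. For the 61 tested class II receptors elsewhere on chromosome 7 these numbers were 6, 23 and 30. The 3 members left untested were Olfr294, Olfr304 and Olfr310, with 0 to 2, 0 to 3 and 1 to 5 counts in a library.

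Summed counts were set against 2 totals, all counts of the library and all class II receptor counts. Of all counts the 33 receptors took 0.0146% ± 0.00566 in wild-type and 0.0143% ± 0.00253 in 5x21-OR1A1 tissue (SD, n = 3 each), a log2 ratio of 0.02 (SE 0.35). Wild-type library 3, at 0.0208%, lay above and wild-type library 1, at 0.00974%, below all 5x21-OR1A1 libraries. The other class II receptors went from 0.309% ± 0.0495 to 0.190% ± 0.0122, a log2 ratio of -0.69 (SE 0.14). As a share of class II counts the members therefore took 3.58, 3.53 and 6.44% in wild-type and 7.77, 6.74 and 6.31% in 5x21-OR1A1 libraries, a log2 ratio of 0.67 (SE 0.30). Wild-type library 3 lay within the 5x21-OR1A1 range.

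The 4 loci differed in these shares. The Olfr520 pair took 0.235% ± 0.0328 of class II counts in wild-type and 0.0787% ± 0.0148 in 5x21-OR1A1 tissue, a log2 ratio of -1.59 (SE 0.21), and all wild-type libraries were above all 5x21-OR1A1 ones. The Olfr292 to Olfr310 cluster took 0.865, 0.925 and 1.32% in wild-type and 1.76, 1.95 and 2.1% in 5x21-OR1A1 libraries, again without overlap and in the other direction (log2 ratio 0.92, SE 0.20). Olfr309 carried much of that sum: without it the cluster took 0.644, 0.767 and 0.894% against 0.806, 0.971 and 1.09%, which overlapped (log2 ratio 0.32, SE 0.19), and in all counts the log2 ratio went from 0.27 to -0.33. The Olfr522 to Olfr541 cluster took 2.11, 2.03 and 4.35% against 5.38, 4.05 and 3.61%, which overlapped (log2 ratio 0.69, SE 0.40). The Olfr290 pair had a log2 ratio of 0.52 (SE 0.28), with overlap.

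**Figure D4:**
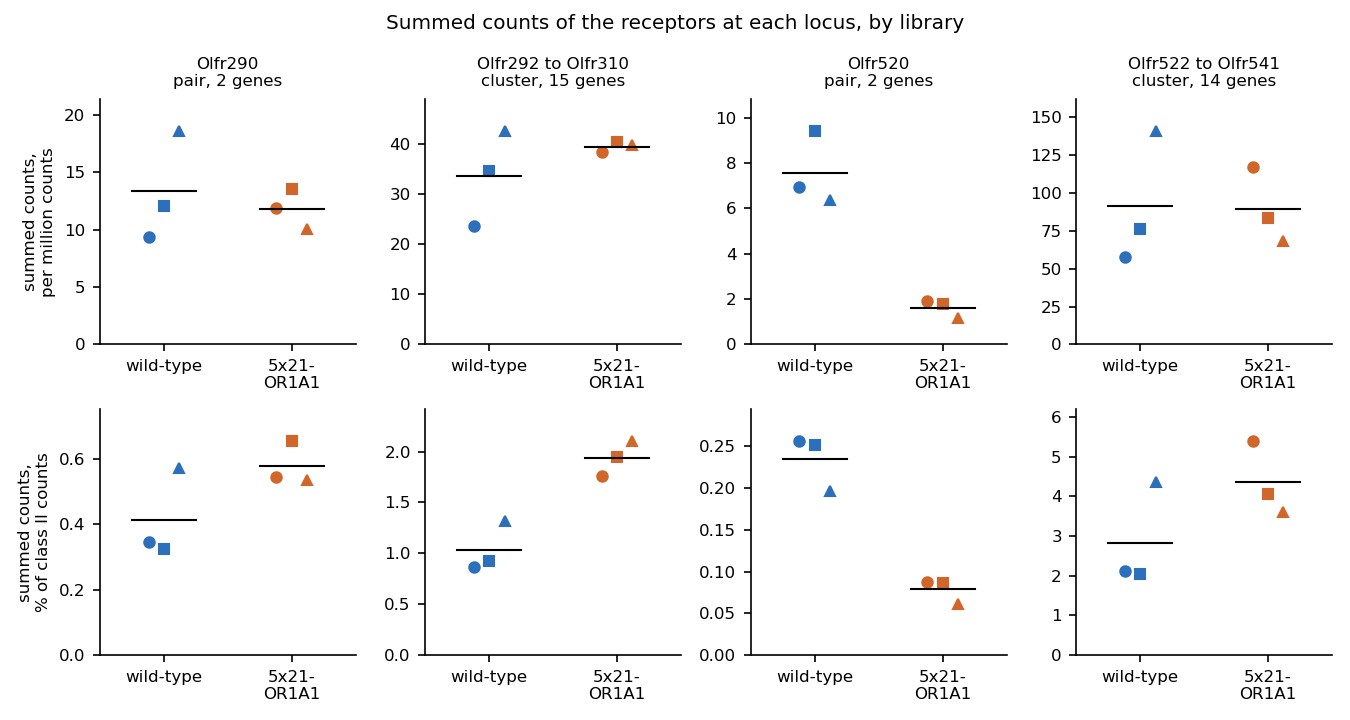
Summed counts of the receptors at each of the 4 loci (columns) as CPM of the raw library total (upper row) and as a percent of all class II receptor counts (lower row), for wild-type (blue) and 5x21-OR1A1 (orange) libraries, with replicates 1 to 3 as circle, square and triangle and lines at group means. The Olfr520 pair is lower in all 5x21-OR1A1 libraries on both scales, and the Olfr292 to Olfr310 cluster is higher in all of them only as a share of class II counts, which rests on Olfr309.

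Receptor families, as named by RefSeq synonyms, gave another grouping of the members, chosen after their values were seen. Both MOR101 genes fell, Olfr520 and Olfr521. Of the MOR103 genes Olfr522 fell, and Olfr524 had a value of 0.01 (SE 0.57). The 3 MOR104 genes, which are Olfr303 and Olfr308 in 1 cluster and Olfr523 in another, had values from -1.23 to -0.73 and did not pass. The other families tested, MOR219, MOR220, MOR221, MOR251, MOR252, MOR253 and MOR254, had medians from -0.21 (MOR252) to 0.82 (MOR221), and of their members Olfr299 of MOR221 passed. Elsewhere in the genome 13 tested MOR103 genes had values from -0.56 to 1.35 with a median of 0.53, and 0 passed. Of 6 tested MOR253 genes that are no members 1 rose, Olfr211 on chromosome 6 (log2 fold change 1.57, SE 0.27, edgeR adjusted p = 0.0268), and the median was 0.28. The other 5, Olfr45, Olfr46, Olfr53, Olfr60 and Olfr61, lie within the span of the distal cluster. Of 5 tested MOR227 genes elsewhere 0 passed. No further MOR101 gene was tested.

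The genes around the loci were read for change beyond the receptors. Of genes that are no odorant receptors and lie within 1 Mb of a locus, 14 near the Olfr290 pair, 8 near the Olfr292 to Olfr310 cluster, 38 near the Olfr520 pair and 70 near the Olfr522 to Olfr541 cluster were tested. In that order their medians were 0.07, 0.48, -0.02 and -0.02, and 0, 0, 1 and 1 passed, all lower. The passing genes were Dnajb13 (log2 fold change -0.47, edgeR adjusted p = 0.0136), which lies 732395 bases from the Olfr520 pair, and Rassf7 (-0.56, edgeR adjusted p = 0.0195), which lies 510254 bases from the distal cluster. Many genes around the 2 proximal loci are vomeronasal receptors of the Vmn2r family, and none of those tested there passed. Their counts were as uneven as the vomeronasal sums: Vmn2r69, near the Olfr290 pair, had 103, 26 and 5 against 40, 20 and 79 counts. The median over all tested vomeronasal receptors was 0.46. The 5 MOR253 genes named above that lie within the distal cluster, Olfr45, Olfr46, Olfr53, Olfr60 and Olfr61, had values from -0.25 to 0.59, and 0 passed. Olfr46 showed the spread of its neighbours, at 21, 8 and 144 counts in the wild type against 131, 31 and 64 with the transgene.

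Genes that act with the receptors were read from lists. The transduction cascade carries the signal from the receptor to the cyclic nucleotide-gated channel, and its list also held genes beside that path, such as Omp and Gfy. Of the 17 genes listed 5 fell and 0 rose, with a median of -0.60. They were Omp, the olfactory marker protein (-0.76), Gng13, a G protein gamma subunit (-0.81), Ric8b, an exchange factor of the olfactory G protein (-0.74), Cnga4, a channel subunit (-0.68), and Gfy, a Golgi protein of these neurons (-0.76). Of 22 genes of receptor choice and trafficking Ebf4, a transcription factor, fell (-0.74, SE 0.11, edgeR adjusted p = 0.0162) and 0 rose, with a median of 0.02. Of 14 markers of mature neurons, many of them also in the cascade list, 5 fell and 0 rose (median -0.66). Omp, Gng13, Cnga4 and Gfy are the same genes as above, and Umodl1 (-0.71) was the other. Of 3 dorsal markers Nqo1, an enzyme of dorsal neurons, fell (-1.18, SE 0.15, edgeR adjusted p = 0.00867), and of 5 ventral markers 0 passed. Of 11 immature neuron markers 4 rose (median 0.39), with Gap43, a growth cone protein, at 0.78, and of 10 progenitor markers 6 rose (median 0.63), with Insm1 at 0.97. Of the markers of horizontal basal, supporting, gland, respiratory, microvillous and glial cells 0 passed. Of 6 immune markers 1 rose, Jchain, an antibody component (1.52). Of 5 bulb and brain markers 2 fell, Slc1a2 and Eomes (-0.84 and -0.90), with a list median of -0.20. The others, Tbr1, Gad1 and Slc17a7, had values of -0.20, 0.42 and 0.45 and did not pass. Their wild-type means were low, at 1.03, 0.738 and 0.48 CPM. Of the 94 vomeronasal receptors tested 1 rose, Vmn2r24 (1, 0 and 1 counts against 12, 11 and 12), and the median was 0.46. Vmn2r24 met the count filter through its 5x21-OR1A1 libraries alone, so its being tested and its call are tied. The part of these shifts in the receptor results was not tested.

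With counts scaled to the summed mature neuron markers the median of all genes moved from 0.02 to 0.71, Olfr520, Olfr521 and Olfr522 still fell (-1.78, -1.44 and -1.42), and 9 of the 30 tested members were called higher beside 76.4% of all genes. These were Olfr290, Olfr295, Olfr298, Olfr299, Olfr309, Olfr525, Olfr527, Olfr533 and Olfr541, and the same genes were called with counts scaled to the other class II receptors, beside 73.3% of all genes. The shares of all genes called lower were 1.32 and 1.29% in these fits, which called the same 3 members lower.

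The other fits gave other counts of called members, set here beside the share of all genes called the same way. DESeq2 called 6 members lower and 3 higher, against 4.88 and 1.69% of its genes, limma-voom 3 and 2, against 2.07 and 0.545%, and edgeR without a filter 5 and 2, against 1.82 and 0.519%. Beyond the genes called above, DESeq2 called Olfr291, Olfr303 and Olfr308 lower and Olfr309 and Olfr525 higher. Limma-voom added Olfr309 as higher. EdgeR without a filter added Olfr303 and Olfr308 as lower and Olfr309 as higher. Without wild-type library 1, 2 or 3 the members called lower were 7, 3 and 3, against 2.41, 1.33 and 1.86% of all genes, and those called higher 1, 1 and 4, against 0.786, 0.259 and 0.399%. Without 5x21-OR1A1 library 1, 2 or 3 the 2 members called lower each time were Olfr521 and Olfr522, against 0.693, 0.769 and 0.692% of all genes, and 0 were called higher, against 0.0968, 0.116 and 0.0713%. At an adjusted p under 0.01 edgeR called Olfr521 and Olfr522 lower and 0 members higher, against 0.799% of all genes in either direction. With the replicate number as a block the calls were 3 and 1, against 1.68 and 0.280%.

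**Figure D5:**
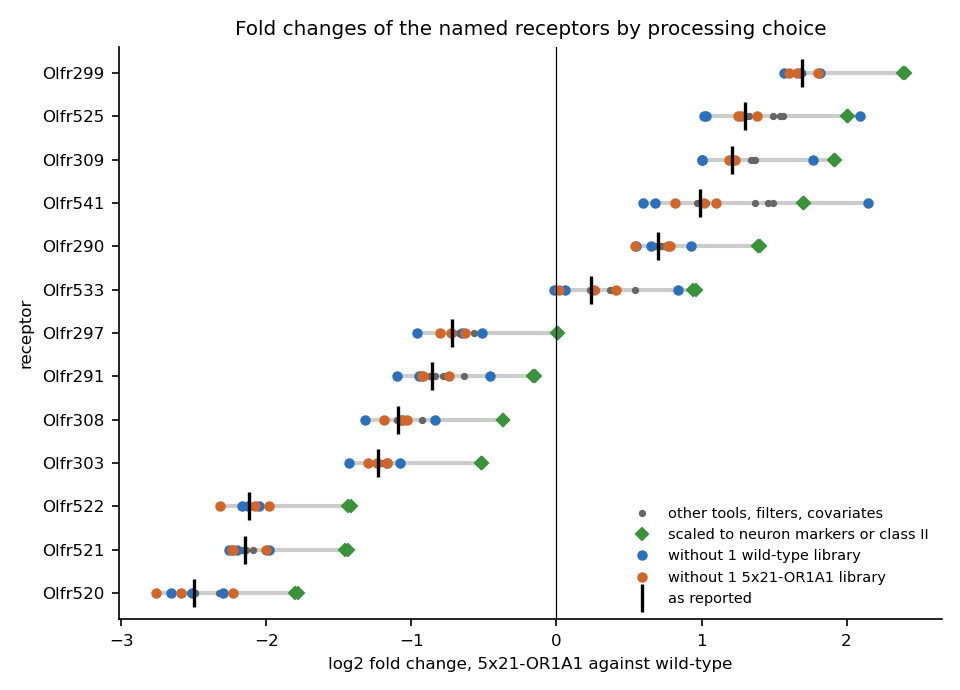
Log2 fold change of the named receptors between 5x21-OR1A1 and wild-type libraries (x axis) as reported (black bar) and under the other processing choices (points; green for scaling to neuron markers or to other class II receptors, blue and orange for leaving out 1 wild-type or 1 5x21-OR1A1 library). Olfr520, Olfr521 and Olfr522 stay at or below -1.42 in every setting shown and Olfr299 at or above 1.57, while Olfr533 and Olfr297 touch 0.

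Windows at the gene starts could not be read as promoters for most members. RefSeq tables for GRCm38.p6 gave a start window for 27 of the 33 receptors, and 24 of these windows lie within 50 bases of a start codon, where the RefSeq model begins, while GENCODE places the first exon of most of these genes further upstream. Of the other 3, TAATTA, a homeodomain core, was found in the window of Olfr301 and CCCNNGGG, an Ebf-like core, at 2 places in that of Olfr536. Both strands were searched, and 5.29 and 13.7% of all windows of this length hold TAATTA and CCCNNGGG. Among receptor windows within 50 bases of the outermost GENCODE transcript start, which holds for Olfr301 and not for Olfr536, the shares were 21.4 and 10.7%, and among all receptor windows 18.6 and 3.07%. A match is a description of these letters only.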

How the data were processed

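Poly-A RNA of dissected mouse olfactory epithelium was read as single-end reads of nonstranded libraries, per the labels' protocols. The authors deposited unnormalized read counts for each gene symbol, with TopHat2 2.1.1, HTSeq 0.9.1 and GRCm38.p5 named in the submitters' processing notes. The sources used here state no annotation release, no counting options and no rule for reads that match several places. Columns were matched to libraries by the description in the labels. Without strand, reads of overlapping genes cannot be told apart.

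Genotypes were compared by edgeR's quasi-likelihood test (version 4.0.16, R 4.3.3) after TMM scaling and filterByExpr by genotype. P-values were adjusted by Benjamini-Hochberg over all 19267 genes tested, and a gene was called where the result was under 0.05. Standard errors are the log2 fold change over the square root of F. All results of such fits in the text use this adjustment. The fits were tested on simulated counts. Alternatives used DESeq2 1.42.0, limma 3.58.1, other scalings, filters and covariates, and left out each library. Libraries of a group differed beyond sampling noise, and each is 1 replicate.

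The members, lists and comparisons were chosen with earlier results of these data known. Named members are those called, the 5 largest values in each direction and the 5 highest levels per exon length in wild-type tissue, with further members named where a locus or relative is described. Of the lists, genes that passed were named, with at most 4 a list except for the transduction cascade and the mature neuron markers. Class I receptors were taken by their place on chromosome 7 and all other receptor symbols counted as class II. Coordinates and coding sequences are from GENCODE M21 (GRCm38), and coding identity was computed with Biopython 1.88 in place of protein identity. Nothing was aligned to the transgene, and OR1A1 is not analysed here.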

Additional observations from a re-analysis of the deposited data

How the results depend on the processing

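The falls of Olfr521 and Olfr522 passed in all 16 other fits. Olfr520 and Olfr299 passed in 13 of 16 and were lost when 1 5x21-OR1A1 library was left out. At an adjusted p under 0.01 Olfr521 and Olfr522 passed, and 0 members were higher. Members called lower were 6 with DESeq2 and 5 without a filter, against 4.88 and 1.82% of all genes. They were 2 to 7 when 1 library was left out, against 0.692 to 2.41%, with 7 without wild-type library 1. Members called higher were 9 with scaling to mature neuron markers and 9 with scaling to the other class II receptors. These stand beside 76.4 and 73.3% of all genes called higher. With DESeq2, limma-voom and no filter 3, 2 and 2 were higher, against 1.69, 0.545 and 0.519% of all genes. When 1 library was left out 0 to 4 were higher, against 0.0713 to 0.786%. Neither scaling changed which members were called lower.

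The median of the Olfr290 to Olfr310 range, -0.08, was 0.65 under both of these scalings and -0.32 to 0.08 when 1 library was left out. Without a filter it was 0.14, but over a larger set that also held the scarcely counted Olfr294, Olfr304 and Olfr310. The median of the Olfr520 to Olfr541 range, -0.17, was 0.56 scaled to mature neuron markers, 0.55 scaled to other class II receptors and -0.39 to 0.48 when 1 library was left out, with 0.48 without wild-type library 3. Its sign also turned with limma-voom (0.06), with the replicate block (0.02) and with the sex of a library as a covariate (0.19). Sex was read from the counts of Xist and Ddx3y, since no label gives it. Both sexes were read among the libraries, and how they split over the groups is not given here. The part of sex in the spread between libraries was not tested. Scaling to mature neuron markers or to other class II receptors by construction removes the fall of the summed markers or receptors. The summed share of the Olfr290 to Olfr310 range, a log2 ratio of 0.17, was 0.82 of class II counts, 0.87 per count of mature neuron markers and -0.26 without Olfr309. The share of the Olfr292 to Olfr310 cluster went without Olfr309, a choice made after seeing the data, from 0.92 to 0.32 of class II counts and from 0.27 to -0.33 of all counts. That of the Olfr520 to Olfr541 range, -0.07, was 0.58 and 0.63. Left-out libraries gave -0.06 to 0.39 and -0.33 to 0.26. Olfr297, at -0.72, was 0.01 and 0.004 under the scalings, and Olfr533, at 0.24, was -0.02 without wild-type library 1 and 0.84 without wild-type library 3; neither passed in these fits, and the cause was not tested.

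The labels give replicate numbers and do not say whether same-numbered libraries of the groups belong together. Deviations of same-numbered libraries correlated at -0.333, 0.0723 and -0.17. As the deviations were taken from the mean of only 3 libraries, these values cannot show whether a batch was shared. With the replicate number as a block 3 members were lower and 1 higher, the same genes as without it, and the block changed no call of a member. No wild-type library correlated best with the 5x21-OR1A1 library of its own number. The depth of 0 to 5 counts leaves Olfr294, Olfr304 and Olfr310 without a test.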
